A study of Sus scrofa with 61 samples.

Results

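The genes described here are 9 members of the Notch pathway: the receptors NOTCH1, NOTCH2 and NOTCH3, the ligands JAG1, JAG2 and DLL1, the target genes HES1 and HEYL, and MFNG, an enzyme that modifies the receptors. A probe was taken as a member when its gene name on the array, or its symbol in the study's additional gene lists, was one of these 9 names. This gave 9 probes of 6 genes among the 60305 probes and 12300 gene symbols of the array, and no probe matched JAG2, DLL1 or HEYL, which were not analysed here. JAG1 had 4 probes and each of the other 5 genes had 1.

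The RNA came from the longissimus muscle of 61 male pig fetuses, taken by caesarean at 90 or 110 days of gestation and hybridised 1 fetus per array. Large White (LW) and Meishan (MS) fetuses were purebred, LWMS fetuses had an MS dam and an LW sire, and MSLW fetuses had an LW dam and an MS sire. At day 90 each of the 4 genotypes had 8 fetuses, and at day 110 there were 9 LW, 7 MS, 8 LWMS and 5 MSLW fetuses. Fetuses of a litter share a sow, and the sow of each fetus is not given in the labels, so p-values measure the spread between fetuses and not between litters.

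Notch receptors sit in the cell membrane and are activated by ligands on a neighbouring cell. Activation leads to cleavage of the receptor by proteases, and the freed inner part enters the nucleus, joins the DNA-binding protein RBPJ and switches on genes of the HES and HEY families, which are repressors of transcription. In skeletal muscle this signal is known for holding muscle stem cells in an undifferentiated state, and in blood vessels NOTCH3 is known as the receptor of mural cells (pericytes and smooth muscle).

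What each probe measures depends on where it binds, so the probe sequences are shown first, in lower case and read from the scanner files. Whole probes are given for NOTCH1, which the array annotates to a partial coding sequence, and for NOTCH2, and the first 30 of 60 bases for the others.
NOTCH1 (A_72_P075051): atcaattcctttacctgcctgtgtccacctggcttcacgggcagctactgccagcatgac
NOTCH2 (O8047): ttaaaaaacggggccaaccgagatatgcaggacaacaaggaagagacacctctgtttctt
NOTCH3 (O12554): acttcactgcattccagatggaacttattc
JAG1 (A_72_P100896): gaaaagtgccttgcagctcagaaccacagc
JAG1 (A_72_P623138): cgttttaaggactgactgaggcagtttgag
JAG1 (A_72_P627326): acactgcctgccttaagtgaggaaatcaaa
JAG1 (A_72_P500418): cagacatcaacctgcatcttcgatgtgttg
HES1 (O14723): gcacttgctcagtagctttgcgaaagtctc
MFNG (O14927): ccatggctgtcctttccaacgtctggttct
The 4 JAG1 probes lie on 1 predicted pig transcript, at positions 4563, 5059, 5446 and 5569 in the order listed, and do not overlap. The NOTCH2, NOTCH3 and HES1 probes are annotated on the array through human entries, and their match to the pig genome was not checked here, since no genome was used.

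A probe was kept when, in 1 or more groups, the scanner software put it well above background for 80% or more of the fetuses, which held for 42436 of the 60305 probes and for 8 of the 9 Notch probes. The 8 kept Notch probes were well above background on all 61 arrays, although the signal of NOTCH1 was low. The numbers of probes well above background per array ranged from 34346 to 45683, and the lowest was that of MS fetus 3 of day 90. Values are quantile-normalized log2 signals, differences are on that log2 scale and fitted with limma, and a probe was called when its p-value, adjusted over all kept probes by Benjamini-Hochberg, was under 1%. Levels of different probes cannot be compared with each other.

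From day 90 to day 110, NOTCH3 fell in all 4 genotypes and JAG1 fell at 3 of its 4 probes in MS and LWMS fetuses and at 2 of 4 in MSLW, while MFNG rose in MS and LWMS fetuses. Whole muscle was measured, so fewer cells of a type and less RNA per cell cannot be told apart. At day 110 NOTCH3 and 3 of the 4 JAG1 probes were lower in MS than in LW, and MFNG was higher. NOTCH1 and HES1 were called in no comparison. In LW, 1 of the 8 kept Notch probes was called between the ages, against 45.3% of all probes, and in MS it was 5 of 8, against 56.6%. In LWMS it was 5 of 8, against 50.9%, and in MSLW 3 of 8, against 44.6%. Between MS and LW, 1 of 8 was called at day 90, against 12.8% of all probes, and 5 of 8 at day 110, against 29%. The size of the age change was different in MS and LW for 2 of 8, against 5.96% of all probes. Between the crosses none of the 8 was called by limma at either age, with 1 probe at an unadjusted p under 0.05 at each age, against 0.5% of all probes at day 90 and 0.917% at day 110. With so few probes these shares are a description, and 3 of the 5 probes called in each of the larger counts belong to JAG1 alone.

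**Figure D1:**
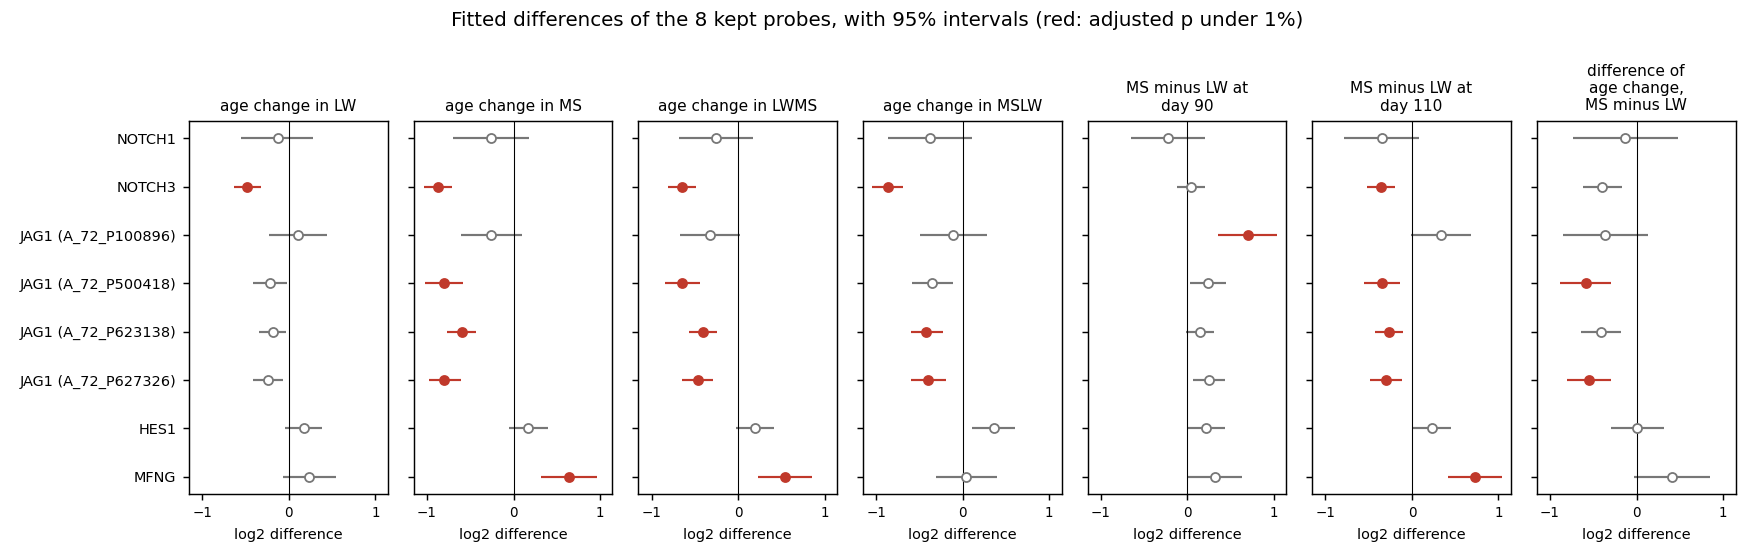
Fitted log2 differences (horizontal axis) of the 8 kept probes of the Notch genes (rows) in 7 comparisons (panels), with 95% intervals, not adjusted for the number of tests. Filled red points have an adjusted p under 1%, and NOTCH3 is red in all 4 panels of age change.

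NOTCH3 had the clearest age change of the receptors. At day 90 the normalized log2 signal had a lowest, median and highest value of 10.68, 10.79 and 11.06 in LW and of 10.75, 10.81 and 11.05 in MS. At day 110 it was 10.15, 10.35 and 10.70 in LW and 9.78, 9.96 and 10.21 in MS. Both MS ages stood fully apart, while in LW fetus 1 of day 110, at 10.70, lay just above the lowest of day 90. In LWMS the 3 values went from 10.53, 10.85 and 11.01 to 9.94, 10.18 and 10.30. In MSLW they were 10.71, 10.94 and 11.17 at day 90, and the 5 fetuses of day 110 were at 10.08, 10.03, 10.26, 9.88 and 10.07. The ages did not overlap in either cross.

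The fitted age change of NOTCH3 was −0.48 ± 0.08 (SE) in LW (limma, adjusted p = 3.2e-07), which left 0.718 of the day 90 level. In MS it was −0.87 ± 0.08 (adjusted p = 3.83e-14), leaving 0.545 of the level. The crosses were at −0.65 ± 0.08 in LWMS (adjusted p = 2.22e-10) and −0.87 ± 0.09 in MSLW (adjusted p = 2.83e-12). All 7 slides with both ages of MS, all 8 of LWMS and all 5 of MSLW showed the lower value at day 110, as did 6 of 7 slides in LW. For comparison, the median age change over all kept probes was 0.026 in LW and 0.034 in MS.

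Between MS and LW, NOTCH3 was called at day 110 and not at day 90, and the ranges of the breeds overlapped at both ages. MS minus LW was 0.04 ± 0.08 at day 90 (adjusted p = 0.806) and −0.36 ± 0.08 at day 110 (limma, adjusted p = 0.000228), when MS was lower on all 6 slides that held both breeds. The difference between the MS and LW age changes, −0.40 ± 0.11, had an adjusted p of 0.0122 and was not called. The 4 means of day 90 were 10.93 in MSLW, 10.87 in MS, 10.83 in LW and 10.82 in LWMS, each within the larger SD of its neighbour. They were followed after a gap of 0.47 by LW (10.35), LWMS (10.17), MSLW (10.06) and MS (9.99) of day 110, whose neighbours again lay within the larger SD.

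NOTCH1, the receptor best known from muscle stem cells, had a low signal and a wide spread. Group means lay between 5.27 in LWMS at day 110 and 5.83 in LW at day 90, with SDs from 0.22 to 0.90. Every group overlapped with every other among the comparisons made. The age change was −0.13 ± 0.21 for LW, −0.26 ± 0.22 for MS, −0.26 ± 0.21 for LWMS and −0.38 ± 0.24 for MSLW, with limma adjusted p-values from 0.182 to 0.61. The 95% interval in MS ran from −0.70 to 0.18, so a fall as large as that of NOTCH3 in MS (−0.87) lay outside it, while a smaller one, such as the −0.60 of JAG1 probe A_72_P623138, did not. MSLW fetus 4 of day 90 reached 7.87, against 5.74 for the next fetus of its group.

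The NOTCH2 probe was well above background on 8 of 61 arrays and on none of the MS, LWMS and MSLW arrays of day 110. It was therefore not kept, and no difference is given. The receptor NOTCH2 is thus not measured here by this probe, which says nothing of whether the gene was expressed.

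**Figure D2:**
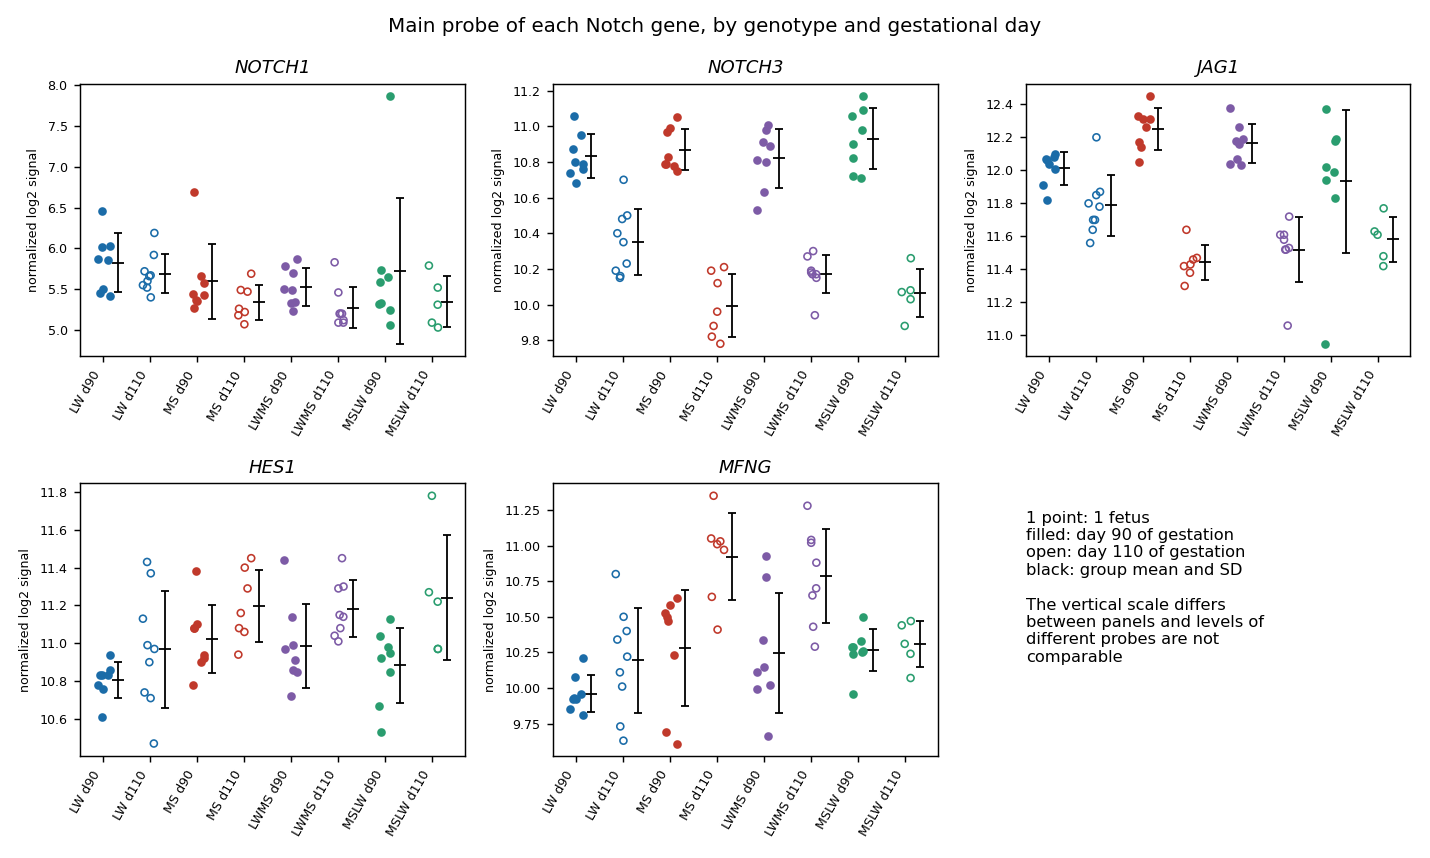
Normalized log2 signal (vertical axis, its range differing between panels) of the main probe of NOTCH1, NOTCH3, JAG1, HES1 and MFNG in each of 61 fetuses, by genotype and gestational day. Filled points are fetuses of day 90, open points those of day 110, and black bars the group mean with its SD, and NOTCH3 drops by 0.48 to 0.87 in the 4 genotypes.

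JAG1, a membrane ligand of the Notch receptors, fell with age in MS and LWMS at 3 of its 4 probes. Its brightest probe, A_72_P500418, had a lowest, median and highest log2 signal of 12.05, 12.28 and 12.45 in MS at day 90 and of 11.30, 11.43 and 11.64 at day 110. In LW it went from 11.82, 12.05 and 12.10 to 11.56, 11.78 and 12.20. The MS ages did not overlap, and the LW ages did. In LWMS the 3 values were 12.03, 12.17 and 12.38 at day 90 and 11.06, 11.55 and 11.72 at day 110, again without overlap. In MSLW they were 10.95, 12.00 and 12.37 at day 90, and the 5 fetuses of day 110 were at 11.42, 11.48, 11.77, 11.61 and 11.63. MSLW overlapped only through fetus 8 of day 90, whose 10.95 lay below every fetus of day 110.

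For this JAG1 probe the age change was −0.81 ± 0.11 in MS (limma, adjusted p = 2.63e-09) and −0.65 ± 0.10 in LWMS (adjusted p = 3.04e-07). In LW it was −0.22 ± 0.10 (adjusted p = 0.0588) and in MSLW −0.35 ± 0.12 (adjusted p = 0.0102), neither called. Without MSLW fetus 8 of day 90, an array with 537 marked spots, the MSLW value was −0.49 (adjusted p = 5.91e-06). The difference between the MS and LW age changes was −0.59 ± 0.15 (limma, adjusted p = 0.00493), a call that was lost with the median signal (adjusted p = 0.0321), the deposited values (0.0322) and normexp background correction (0.0306). MS was lower than LW by −0.35 ± 0.10 at day 110 (adjusted p = 0.00627), on all 6 slides with both breeds, and stood at 0.24 ± 0.10 against LW at day 90 (adjusted p = 0.0981).

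At A_72_P500418 the order of the means turned between the ages, though MS minus LW was not called at day 90. At day 90 MS was highest (12.25), followed by LWMS (12.16), LW (12.01) and MSLW (11.93), and at day 110 LW was highest (11.79), followed by MSLW (11.58), LWMS (11.52) and MS (11.44). Only 2 neighbours in this order were further apart than the larger SD, LWMS and LW of day 90 and LW and MSLW of day 110. The MSLW mean of day 90 includes fetus 8 at 10.95. At A_72_P100896 the MS mean was above the LW mean at both ages, 8.93 against 8.24 at day 90 and 8.67 against 8.34 at day 110.

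Another pair of JAG1 probes also fell with age in MS and LWMS, and unlike A_72_P500418 both were called in MSLW as well. A_72_P627326 changed by −0.80 ± 0.09 in MS, −0.47 ± 0.09 in LWMS and −0.40 ± 0.10 in MSLW (limma, adjusted p from 6.72e-11 to 0.000837), and by −0.24 ± 0.09 in LW (adjusted p = 0.0166). A_72_P623138, which is on a list that the study chose on these samples, changed by −0.60 ± 0.08 in MS, −0.41 ± 0.08 in LWMS and −0.42 ± 0.09 in MSLW (adjusted p from 7.9e-09 to 0.000106), and by −0.19 ± 0.08 in LW (adjusted p = 0.0352). At day 110 both were lower in MS than in LW, by −0.30 ± 0.09 (adjusted p = 0.0062) and −0.26 ± 0.08 (adjusted p = 0.00719). The excess of the MS age change over that of LW was −0.55 ± 0.13 for the first (adjusted p = 0.00217, called) and −0.41 ± 0.11 for the second (adjusted p = 0.0113, not called). With the slide as a block the LW change of A_72_P627326 (adjusted p = 0.0052) and the excess for A_72_P623138 (adjusted p = 0.00331) were also called.

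The calls of a lower JAG1 level in MS at day 110 depended on single fetuses and on the processing. LW fetus 1 of day 110 was the highest of its group in A_72_P500418 (12.20, with the next at 11.87) and A_72_P623138 (10.05), and without it MS minus LW was −0.29 (adjusted p = 0.0197) and −0.22 (adjusted p = 0.0234). Without MS fetus 4 of day 110 the values were −0.32 (adjusted p = 0.0163) and −0.25 (adjusted p = 0.0145). A_72_P627326 was still called in both cases, so the calls went from 5 to 3 of 8 probes. It was itself lost with the median signal (adjusted p = 0.0133), the deposited values (0.0132) and normexp (0.0143), as was A_72_P500418 (0.0282, 0.0282 and 0.0268). A_72_P500418 was also lost with scaling to the 75th percentile (0.013), and A_72_P623138 with no filter (0.0111) or with LW and MS fetuses only (0.0123). All these values stayed negative.

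**Figure D3:**
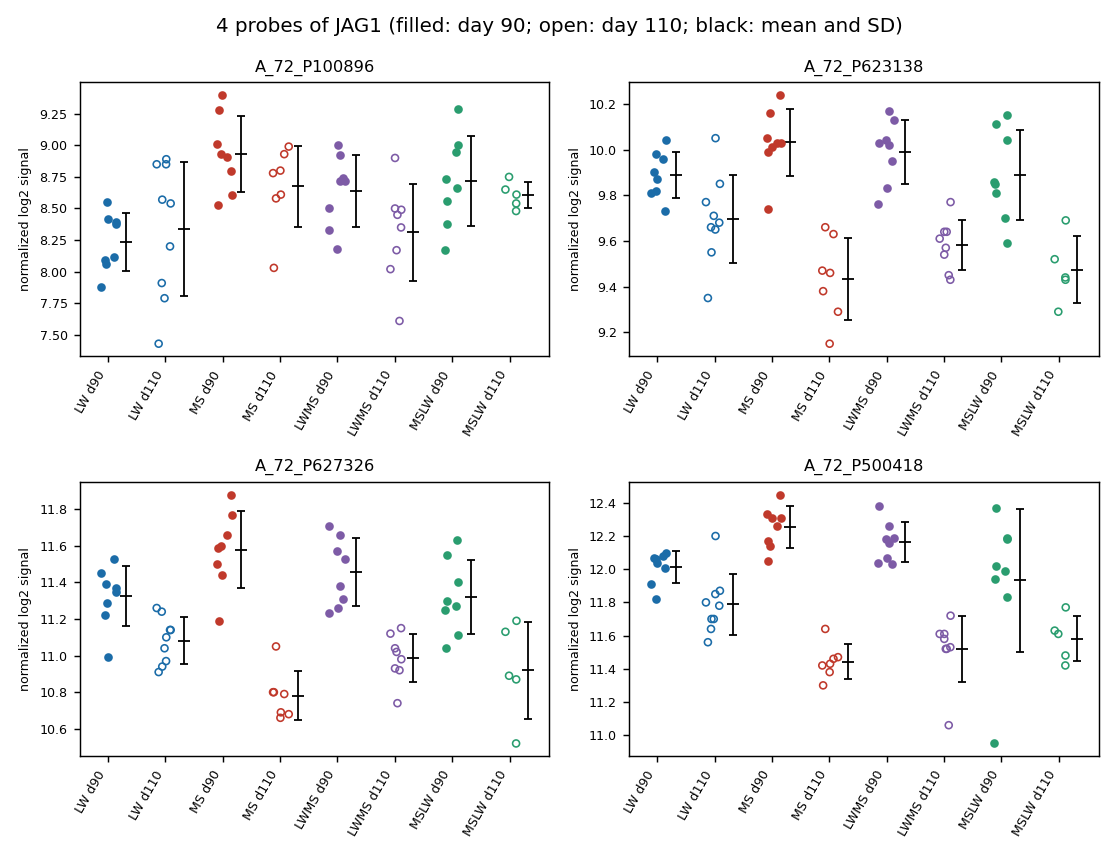
Normalized log2 signal (vertical axis) of the 4 JAG1 probes in each of 61 fetuses by genotype and gestational day, in the order of their position on the transcript. Filled points are day 90, open points day 110, black bars the group mean with its SD. At A_72_P100896 the means of LW are 8.24 and 8.34, while the other 3 probes show lower means at day 110 in every genotype.

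For A_72_P100896, the probe farthest from the transcript's end, the calls differed from those of the other JAG1 probes. Its lowest, median and highest log2 signals were 7.88, 8.25 and 8.55 in LW against 8.53, 8.92 and 9.40 in MS at day 90. For day 110 they were 7.43, 8.54 and 8.89 in LW against 8.03, 8.78 and 8.99 in MS. At day 90 the breeds overlapped at the edge, and at day 110 widely. MS exceeded LW by 0.70 ± 0.17 at day 90 (limma, adjusted p = 0.00178), on all 8 slides, and was at 0.34 ± 0.17 at day 110 (adjusted p = 0.116). No age change of this probe was called, with values from −0.33 in LWMS to 0.10 in LW.

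Set against A_72_P500418 on the same array, A_72_P100896 was higher in MS than in LW by 0.46 at day 90 (exact two-sided permutation test, p = 0.00544) and by 0.68 at day 110 (exact permutation p = 0.00341). Its age change in MS was 0.55 above that of A_72_P500418 (exact permutation p = 0.00917). These 3 had an adjusted p of 0.0298 over the 12 exact tests made between A_72_P500418 and the other JAG1 probes. None of the 12 had an adjusted p under 1%. The age change in LW, 0.32 above, had an adjusted permutation p of 0.154. A_72_P627326 did not differ detectably from A_72_P500418 in any of the 4 comparisons (differences from −0.02 to 0.05), and A_72_P623138 fell less in MS by 0.21 (exact permutation p = 0.00995, adjusted p = 0.0298). Unequal change of the probes was thus not called at the 1% used elsewhere. Whether transcript ends, a variant under a probe or cross-hybridisation had a part in the differences was not tested.

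HES1, a repressor of transcription switched on by Notch, changed in no comparison at the 1% threshold. The lowest, median and highest log2 signal was 10.61, 10.83 and 10.94 in LW and 10.78, 11.01 and 11.38 in MS at day 90. At day 110 it was 10.47, 10.97 and 11.43 in LW and 10.94, 11.16 and 11.45 in MS. The ages overlapped in both breeds, and the breeds at both ages. The age changes were 0.17 ± 0.11 in LW, 0.17 ± 0.11 in MS and 0.20 ± 0.11 in LWMS (limma, adjusted p from 0.109 to 0.181), the 95% interval in MS running from −0.05 to 0.40.

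The HES1 value nearest to the threshold was the age change in MSLW, 0.36 ± 0.12 (limma, adjusted p = 0.0127). Its 5 fetuses of day 110 were at 11.22, 10.97, 10.97, 11.78 and 11.27, against 10.53, 10.94 and 11.13 as the lowest, median and highest of day 90. It was called when scaled to the 75th percentile (0.43, adjusted p = 0.00423), with marked spots kept (0.37, adjusted p = 0.00958), without MSLW fetus 2 (0.42, adjusted p = 0.00574) and without MSLW fetus 3 of day 110 (0.42, adjusted p = 0.00533). The group means ran from 10.80 in LW at day 90 to 11.24 in MSLW at day 110, and each lay within the larger SD of its neighbour.

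MFNG, the manic fringe enzyme that adds a sugar to Notch receptors and so changes which ligands they answer to, was the 1 member to rise. In MS its lowest, median and highest log2 signal went from 9.61, 10.48 and 10.63 at day 90 to 10.41, 11.01 and 11.35 at day 110. LW fetuses had 9.81, 9.93 and 10.21 at day 90, against 9.63, 10.22 and 10.80 at day 110. The ages overlapped in both breeds, in MS through the fetus at 10.41. LWMS went from 9.66, 10.13 and 10.93 to 10.29, 10.79 and 11.28. MSLW stayed near its day 90 values of 9.96, 10.27 and 10.50, with its 5 fetuses of day 110 at 10.24, 10.07, 10.47, 10.31 and 10.44.

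The age change of MFNG was 0.64 ± 0.16 in MS (limma, adjusted p = 0.00042), a ratio of 1.56, and 0.54 ± 0.16 in LWMS (adjusted p = 0.00227). It was 0.23 ± 0.15 in LW (adjusted p = 0.187) and 0.04 ± 0.18 in MSLW (adjusted p = 0.858). MS exceeded LW by 0.73 ± 0.16 at day 110 (adjusted p = 0.000149), a ratio of 1.66, on all 6 slides with both breeds, and was at 0.32 ± 0.16 at day 90 (adjusted p = 0.149). Within slides the age change was less even: 6 of 7 slides in MS and 6 of 8 in LWMS had the higher value at day 110, with differences from −0.50 to 1.26 in LWMS. The difference between the MS and LW age changes, 0.41 ± 0.22, was not called (adjusted p = 0.219).

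Both genotypes with an MS dam, MS and LWMS, had the highest MFNG means at day 110 (10.92 and 10.78), and these lay 0.47 above the next, MSLW at day 110 (10.31). The 6 remaining means, down to 9.96 in LW at day 90, each lay within the larger SD of the neighbour. The direct comparison of the crosses at day 110, MSLW minus LWMS, was −0.48 ± 0.18 with an adjusted p of 0.145 and was not called. For the other main probes the crosses differed by −0.23 ± 0.10 (JAG1, day 90, adjusted p = 0.455) to 0.20 ± 0.21 (NOTCH1, day 90, adjusted p = 0.854).

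The other genes of the pathway were taken from 8 lists with 76 names, of which 54 had a probe and 49 a kept one, each represented by its brightest kept probe. The lists count aliases of a gene separately. In MS 23 of 49 fell with age and 7 rose, against 28% and 28.6% of all probes, and in LW 13 fell and 5 rose, against 23.5% and 21.8%. In LWMS 17 fell and 6 rose, against 25.7% and 25.1%, and in MSLW 16 fell and 5 rose, against 23.8% and 20.8%. The median age change was −0.23 in MS and −0.10 in LW. MS was lower than LW at day 110 for 13 and higher for 4, against 15.2% and 13.7%. At day 90 it was lower for 2 and higher for 5, against 6.61% and 6.23%. The age change was more negative in MS than in LW for 8 and more positive for 1, against 3.4% and 2.56%. Between the crosses none of the 49 was called by limma at either age, against 0.5% of all probes at day 90 and 0.917% at day 110.

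HES1 and HEYL belong to the hairy and enhancer-of-split family of transcriptional repressors, whose other kept genes changed in both directions. HES6, a relative that is known for promoting muscle differentiation and for opposing HES1, fell with age by −1.46 ± 0.14 in LW and −2.45 ± 0.15 in MS (limma, adjusted p = 8.74e-14 and 1.1e-21). Its median signals at day 110 were 10.87 in LW and 9.76 in MS, where the ranges did not overlap. Both its other probes were called in the same direction in every genotype, and the difference between the MS and LW age changes was −0.99 ± 0.20 (adjusted p = 0.00052).

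HEY2, a Notch target in vessel walls, changed by −0.86 ± 0.14 in LW and −1.64 ± 0.15 in MS (limma, adjusted p = 4.79e-07 and 1.61e-14), and by −1.20 in LWMS and −1.24 in MSLW, both called. The MS excess was −0.78 ± 0.20 (adjusted p = 0.00687). HEY1, another such target, fell in MS by 0.45 (SE 0.13, adjusted p = 0.00199) and in LWMS by 0.63 (SE 0.12, adjusted p = 1.69e-05). BHLHE40, a distant member of the family that answers to hypoxia and the circadian clock, rose in all 4 genotypes, by 1.23 ± 0.20 in LW and 0.65 ± 0.21 in MS (adjusted p = 4.49e-07 and 0.0064). BHLHE41, a close relative of BHLHE40, rose in MS and MSLW. So of the 5 kept genes in this list, 3 fell in MS (HES6, HEY1 and HEY2) and 2 rose (BHLHE40 and BHLHE41). Of all probes in MS, 28% fell and 28.6% rose. In LW 2 fell and 1 rose, against 23.5% and 21.8%. In LWMS 3 fell and 1 rose, against 25.7% and 25.1%, and in MSLW 2 fell and 2 rose, against 23.8% and 20.8%.

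Among the other receptors and ligands, DLL4, the ligand of endothelial tip cells, fell in MS by 0.54 (SE 0.13, limma adjusted p = 0.00039), in LWMS by 0.75 (SE 0.13, adjusted p = 1.7e-06) and in MSLW by 0.73 (SE 0.15, adjusted p = 2.99e-05), although neither of its other 2 probes was called. DLL3 was called in no comparison. NOTCH4, the endothelial receptor, exceeded its LW level in MS at day 110 by 0.40 (SE 0.09, adjusted p = 0.000405), and the age change of this probe was not called in any genotype, while 1 of its other probes was called in MS. DLK2, a relative of DLK1, changed by −1.07 ± 0.28 in MS (adjusted p = 0.000706). The signals of DLK2 (mean log2 of 5.16) and DLL4 (group means from 4.93 to 5.70) were low, as that of NOTCH1 was. DLK1, a ligand-like membrane protein of growing muscle and fat precursors, had the largest fall of the lists in MS, −3.06 ± 0.23 (adjusted p = 2.36e-17), against −1.16 ± 0.22 in LW (adjusted p = 8.66e-06). DNER, a ligand-like protein of neurons, rose by 2.11 ± 0.16 in LW and 1.28 ± 0.17 in MS (adjusted p = 4.16e-17 and 3.58e-09).

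The enzymes and nuclear factors of the pathway changed in both directions, and their lists differed in balance. In MS, 4 of 6 kept proteases fell with age and 1 rose, and 2 of 2 sugar transferases fell. Of 3 ubiquitin ligases 1 fell and 1 rose. Of 6 activating nuclear factors 1 fell and 1 rose, and of 11 repressing ones 3 fell and 1 rose. Of 7 inhibitors and turnover genes 4 fell and 0 rose. Of all probes in MS, 28% fell and 28.6% rose. MIB1, the ubiquitin ligase that lets ligands pull on receptors, fell in all 4 genotypes, by −1.08 ± 0.08 in LW and −1.31 ± 0.09 in MS (limma, adjusted p = 4.91e-17 and 1.43e-19). Of the proteases that cut the receptor, APH1A fell in all 4 genotypes at its brightest probe, with its other probes from −0.57 to 0.41 in MS, and PSEN2 rose in all 4, by 1.23 ± 0.13 in LW and 1.61 ± 0.14 in MS (adjusted p = 2.11e-12 and 1.1e-15). ADAM17, which makes an earlier cut, was higher in MS at day 90 by 0.89 ± 0.18 (adjusted p = 0.000129), but its other probes lay between −0.35 and 0.11 and none was called. NEURL, a further ubiquitin ligase, rose in MS by 0.47 ± 0.10 (adjusted p = 6.9e-05). Of the sugar transferases, POFUT1, which adds the fucose that MFNG extends, fell in MS by 0.47 (SE 0.07, adjusted p = 1.64e-08), and POGLUT1 was lower in MS than in LW by 0.70 at day 90 and by 1.02 at day 110 (differences −0.70 ± 0.08 and −1.02 ± 0.08, adjusted p = 9.24e-10 and 1.96e-15). LFNG, a close relative of MFNG, had 1 probe, which was not kept, and RFNG had none.

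RBPJ, the DNA-binding partner of the cut receptor, fell in all 4 genotypes at its brighter probe, by 0.43 in LW (SE 0.05, limma adjusted p = 7.07e-11) and by 0.65 in MS (SE 0.05, adjusted p = 2.89e-16). Its second probe was called in MS alone of the age comparisons, at −0.25. Among the corepressors TLE3 fell in all 4 genotypes, and TLE4, with a low mean log2 signal of 5.18, rose in LW, MS and LWMS. DTX1, a cytoplasmic regulator of Notch that is also one of its targets, fell in all 4, by −0.62 ± 0.11 in LW and −1.60 ± 0.12 in MS (adjusted p = 3.69e-06 and 7.45e-18), and the MS excess was −0.98 ± 0.16 (adjusted p = 3.33e-05). The other DTX1 probe had an MS excess of −0.72, which was not called.

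**Figure D4:**
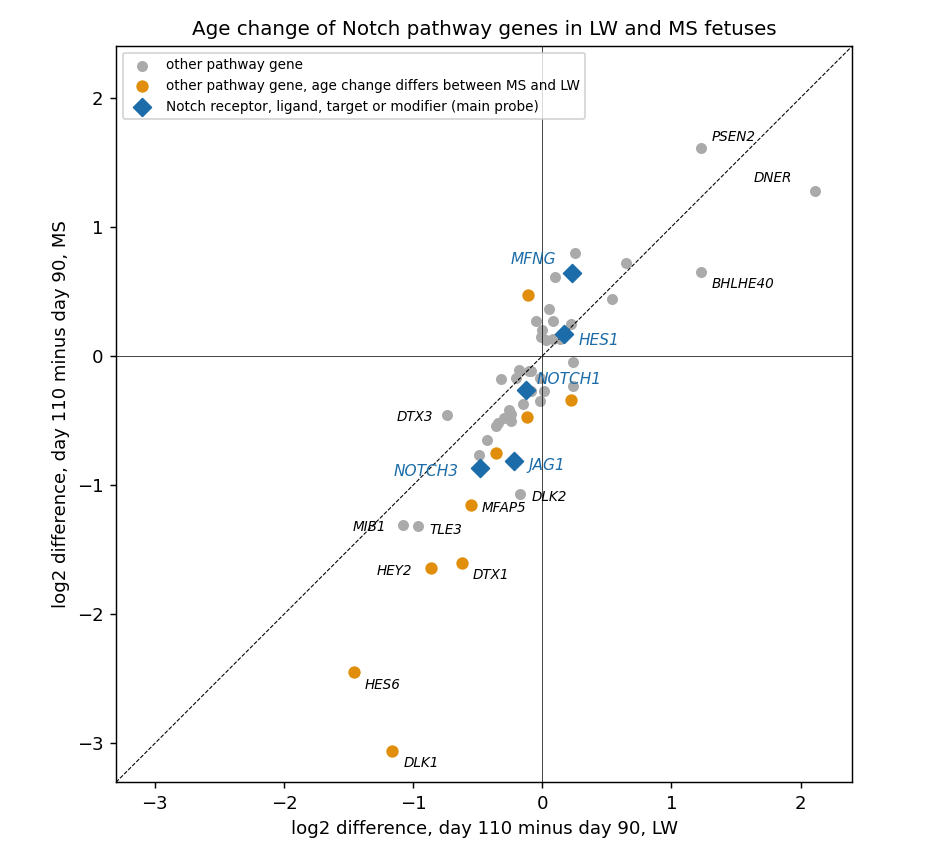
Log2 age change (day 110 minus day 90) in LW (horizontal axis) and in MS (vertical axis) of the main probes of 5 Notch genes (diamonds) and 49 other pathway genes (circles, orange where the MS and LW age changes differed at an adjusted p under 1%). On the dashed line both changes are equal, and HES6, HEY2, DTX1 and DLK1 lie below it.

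Of 10 mural cell markers, 3 fell and 2 rose with age in LW, where 23.5% of all probes fell and 21.8% rose, and 6 fell and 2 rose in MS, against 28% and 28.6%. The smooth muscle markers ACTA2 and TAGLN rose, by 0.53 and 0.68 in LW and by 0.98 and 0.50 in MS, with the other ACTA2 probes from −1.70 to 0.69 in MS. PDGFRB changed by −0.40 in LW and −0.85 in MS, RGS5 by −0.57 and −0.90 and MCAM by −1.21 and −1.94, all called. The other PDGFRB probes did not follow, with age changes from −0.43 to 1.02 in MS. These markers were picked after their values were seen. Of the same list, CSPG4 changed by −0.34 in LW and −1.77 in MS and KCNJ8 by −0.19 and −0.94, called in MS only. MYH11 changed by 0.81 in LW and −0.94 in MS, neither called. Between the breeds at day 110, 5 of the 10 markers were lower in MS and 3 higher, against 15.2% and 13.7% of all probes. The age change was more negative in MS than in LW for 5 and more positive for 0, against 3.4% and 2.56%. Among these 5, MYH11 had a low mean log2 signal of 4.24 and was well above background on 39 arrays only. PDGFRB was also among them, and its other probes lay between −0.27 and 1.13 in this comparison, with 2 called. At day 110 the brightest PDGFRB probe was lower in MS than in LW by −0.33 (limma, adjusted p = 0.00129), and its other probes lay between −0.26 and 1.71. RGS5 was higher by 0.41 (adjusted p = 0.000542). The mean log2 level of the list ranged from 11.08 to 11.36 in MS at day 90 and from 10.19 to 10.67 at day 110, and from 10.60 to 10.88 and 10.44 to 10.92 in LW. Its part in the NOTCH3 and JAG1 results was not tested.

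Markers of other cells moved as well. The shares of all probes given above for LW and MS are the background of these counts too. Of 9 kept endothelial markers, 5 fell in LW and 5 in MS with 1 rising in each, and the list mean lay between 11.36 and 11.68 in MS at day 90 and between 10.69 and 10.99 at day 110. All 8 fibroblast markers fell in all 4 genotypes, with a median of −1.02 in LW and −1.77 in MS. Of 8 kept markers of satellite cells and myoblasts, 5 fell in LW and 6 in MS, while PAX7, the defining stem cell factor, rose by 0.56 in LW and 1.70 in MS (limma, adjusted p = 0.00837 and 4.6e-11), although its other probe was called in MS and not in LW (0.34). The myoblast marker CDH15 was well above background on 13 arrays only. Of 8 kept fibre markers 5 rose and 1 fell in LW and in MS, the one that fell being MYH3, the embryonic myosin, at −1.31 in LW and −3.59 in MS. The mean level of the fibre list lay between 16.62 and 17.08 on all arrays. No part of these lists in the Notch results was tested.

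As a description of which genes varied alongside each main probe from fetus to fetus, residuals after group and slide were correlated over 61 fetuses. For NOTCH3 the 3 most alike were GNAS (r = 0.68), NCS1 (r = 0.66) and TRPC4AP (r = 0.63), for HES1 TOB1 (0.53), IRF2BPL (0.53) and SEMA4A (0.52), and for MFNG GRRP1 (0.67), ZRANB2 (0.64) and RAB22A (0.57). For JAG1 they were POGZ (0.83), TRAPPC6B (0.78) and DCTN4 (0.78), or 0.70, 0.62 and 0.61 without fetus 8 of MSLW and of LWMS at day 90. These 3 shared 0.91 to 0.95 with each other. With the other JAG1 probes they shared less than with A_72_P500418. The values were 0.11 to 0.22 for A_72_P623138, 0.27 to 0.37 for A_72_P627326 and 0.15 to 0.25 for A_72_P100896. The main probe, A_72_P500418, shared 0.59 with A_72_P623138, 0.65 with A_72_P627326 and 0.37 with A_72_P100896. For NOTCH1 they were PCMT1 (0.69), PSME4 (0.67) and ABLIM1 (0.57), which dropped to 0.42, 0.36 and 0.25 without the 2 fetuses farthest out, MSLW fetus 4 and MS fetus 3 of day 90. These are correlations over fetuses that share slides, litters and tissue makeup, and they carry no test.

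Among the 5 main probes themselves, residual correlations over the 61 fetuses were weak, from −0.16 (NOTCH3 and HES1) to 0.20 (NOTCH1 and JAG1). The 8 group means correlated more strongly, from −0.96 (NOTCH1 and HES1) to 0.92 (NOTCH3 and JAG1) over the 10 pairs. The means separated fully by age for NOTCH3 and JAG1 only. For NOTCH1, HES1 and MFNG the LW mean of day 110 lay among the means of day 90. These correlations are a description and carry no test.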

How the data were processed

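Each RNA was labelled with Cy3 and hybridised to 1 one-colour Agilent array. Per the labels and file headers, the authors extracted intensity values with Agilent Feature Extraction 10.10.1.1, background-corrected and not normalized between arrays. The authors also deposited a table of quantile-normalized log2 values for 44368 spots (the labels name limma, with no role stated). It was used as an alternative.

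Here each array had 4 to 802 spots marked non-uniform, which were treated as missing. The processed intensity was then log2 transformed, quantile normalized and averaged over spots of a probe. At most 2 spots per array were saturated. Array number and low signal limit the precision. Groups came from the labels. The 8 group means were fitted with limma 3.58.1 in R 4.3.3 and 9 contrasts tested (two-sided, Benjamini-Hochberg over 42436 probes). The random sow effect of the methods could not be fitted. The code was tested on simulated data.

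The members, gene lists and tests were chosen with earlier results of these data known. Every member probe is named. A list gene is named when its brightest kept probe has one of the 3 largest called differences in a direction of a comparison, or belongs to a member's family. Exceptions were chosen after their values were seen (APH1A, POFUT1, RBPJ and the markers PDGFRB, RGS5, MCAM, CSPG4, KCNJ8, MYH11, ACTA2, TAGLN, PAX7, CDH15 and MYH3). A planned promoter search was not run, since no promoter sequences were used here. Alternatives changed signal column, background, scaling, filter, marked spots, slide block and samples.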

Additional observations from a re-analysis of the deposited data

Results flagged for a closer look

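In 8 of 64 combinations of a kept probe and a group, 1 fetus stood apart from its group by Dixon's criterion, from 7 fetuses in all. Chance alone flags about 5% of groups. NOTCH1 had a fetus at 6.69 in MS at day 90 (fetus 3, on the array with the fewest probes well above background) and one at 7.87 in MSLW at day 90, both above the rest. NOTCH3 had a low fetus at 9.94 in LWMS at day 110. JAG1 probe A_72_P500418 had low fetuses at 10.95 in MSLW at day 90 and at 11.06 in LWMS at day 110, and a high one at 12.20 in LW at day 110. JAG1 probe A_72_P100896 had a low fetus at 8.03 and JAG1 probe A_72_P627326 a high one at 11.05, both in MS at day 110. The low NOTCH3 and JAG1 values of LWMS at day 110 came from the same fetus.

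The fall with age was larger in MS than in LW, by the limma test of the difference itself, for JAG1 probes A_72_P500418 (−0.59) and A_72_P627326 (−0.55). The first was not called with the median signal, the deposited values or normexp (adjusted p from 0.0306 to 0.0322).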

How the results depend on the processing

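Of 1512 single-probe values recomputed under an alternative, none that passed the threshold changed direction, 17 fell out of the calls and 26 came in. Another 8, called under neither setting, turned sign. Leaving out in turn each of the 7 fetuses that stood apart was added after the values were seen.

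The called Notch probes in LW went from 1 to 2 with the median signal, the deposited log2 values, the slide as a block or only LW and MS fetuses, the second being a JAG1 probe each time. For MS minus LW at day 110 they went from 5 to 3 with the median signal, the deposited log2 values or normexp, when JAG1 probes A_72_P500418 and A_72_P627326 were lost. For the difference of age change between MS and LW they went from 2 to 4 with scaling to the 75th percentile, with probes well above background on all arrays or with marked spots kept, NOTCH3 and JAG1 probe A_72_P623138 being added. The interaction of A_72_P500418 was lost with the median signal (−0.57, adjusted p = 0.0321), the deposited values and normexp. The cause of these shifts was not tested. Only the 5 MSLW fetuses of day 110 and the 7 fetuses that stood apart were left out, 1 at a time, which gave 1 to 2 called probes in LW (2 without LW fetus 1 of day 110), 2 to 5 in MSLW (5 without MSLW fetus 3 of day 110), 3 to 5 for MS minus LW at day 110, and 2 to 3 for the difference of age change. Fetus numbers were given in accession order and pair no samples, so the block used was the slide.

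Scaling to the 75th percentile moved the median over all probes of the MS age change from 0.034 to 0.125, and the NOTCH3, JAG1 and MFNG calls of MS kept their direction. NOTCH2, JAG2, DLL1 and HEYL were not measured, NOTCH1 was dim, and the 5 MSLW fetuses of day 110 limit that group.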
